A study of Mus musculus with 4 samples.

Results

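The aminoacyl-tRNA synthetase genes were examined for peaks of phosphorylated ATF2 in mouse haematopoietic stem cells. A gene was included when its RefSeq symbol is an amino acid letter followed by ars or ars2 (or ars1), or Eprs, Farsa, Farsb or Qars. This gave 37 of the 21887 genes that code for protein on the nuclear chromosomes, 20 for the cytosolic enzymes and 17 for the mitochondrial ones. The selection used names alone, though the family was picked with earlier results of these data known. Each was scored in each library for a peak summit within 1 kb of either end of the gene.

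Aminoacyl-tRNA synthetases join each amino acid to its tRNA, the step that makes the genetic code work. In animals most amino acids have 2 such enzymes, 1 for the cytosol and 1 for mitochondria, both encoded in the nucleus; Gars and Kars each serve both compartments. Several cytosolic enzymes sit together in the multi-synthetase complex. Many cytosolic synthetase genes are textbook targets of ATF4, the factor of the integrated stress response, which binds C/EBP-ATF composite elements. ATF2 is another leucine-zipper factor of the ATF/CREB family, known to bind the cAMP response element (CRE) with Jun proteins after phosphorylation by stress kinases.

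The cells were bone marrow stem cells sorted from wild-type C57BL/6J mice by the CD48-CD150+LSK phenotype, and no other genotype or treatment was included. CUT&Tag, in which an antibody directs a transposase to chromatin, was done with an antibody to ATF2 phosphorylated at T69/71 (the antibody field says T67/71) or at S490/498, with 2 libraries each. Each library was made from 2000 to 5000 cells. The labels do not say that the 2 replicates were separate mice, so any spread between them may be technical. No library made with a control antibody was analysed here, and background was therefore not measured the same way. Peak lists do not measure expression; as a look at the labelled cell type, 1 of 10 stem cell marker genes (Hlf), 1 of 4 myeloid (Mpo), 0 of 4 B cell and 0 of 4 erythroid markers carried a T69/71 peak at a gene end in replicate 1 as well as replicate 2. Of all genes 21.1% did, so these counts say nothing of the cell type.

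On those chromosomes the T69/71 lists held 12464 and 14716 peaks in replicates 1 and 2, and the S490/498 lists 7132 and 435. The last library stood apart. Its lowest background coverage was 1.52, against 0.0874 to 0.117 in the other 3, so the same number of fragments gives a lower fold there. A gene without a peak in that list was not read as lacking signal. Every fold enrichment given is the authors' value at the summit over the local background of that library. Folds of different libraries are set side by side as descriptions only.

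The start regions of 7 synthetase genes are shown first, because start-site peaks of these genes lie on or beside them. They run from 250 bases before to 50 after the annotated start, 5′ to 3′ on the gene's own strand, from RefSeq on GRCm38.p6. The first 6 are the 3 best ranked cytosolic and 3 best ranked mitochondrial genes among those with peaks in both T69/71 libraries and a RefSeq window, and Eprs was added after its values were seen. Lars2 is among the 6 through a peak at its 3′ end, far from the window shown. Its start peaks ranked only 8033 and 13080 by −log10 q in replicates 1 and 2 of T69/71. Capitals mark TGACG (the core of the CRE) and TGATGNAA (the C/EBP-ATF element), on either strand.
Nars2, chr7:96951277-96951576, plus strand: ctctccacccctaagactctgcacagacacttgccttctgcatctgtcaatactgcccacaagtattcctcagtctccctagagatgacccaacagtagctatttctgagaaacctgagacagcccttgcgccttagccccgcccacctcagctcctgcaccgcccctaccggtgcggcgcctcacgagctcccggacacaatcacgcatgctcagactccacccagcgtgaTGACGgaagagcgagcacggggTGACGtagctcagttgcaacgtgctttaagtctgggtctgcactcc
Yars, chr4:129189653-129189952, plus strand: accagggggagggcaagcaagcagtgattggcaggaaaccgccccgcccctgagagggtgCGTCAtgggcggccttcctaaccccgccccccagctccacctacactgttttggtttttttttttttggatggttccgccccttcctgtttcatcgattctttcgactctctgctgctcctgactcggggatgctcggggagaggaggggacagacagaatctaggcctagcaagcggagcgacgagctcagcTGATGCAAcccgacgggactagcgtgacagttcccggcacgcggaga
Tars, chr15:11399609-11399908, minus strand: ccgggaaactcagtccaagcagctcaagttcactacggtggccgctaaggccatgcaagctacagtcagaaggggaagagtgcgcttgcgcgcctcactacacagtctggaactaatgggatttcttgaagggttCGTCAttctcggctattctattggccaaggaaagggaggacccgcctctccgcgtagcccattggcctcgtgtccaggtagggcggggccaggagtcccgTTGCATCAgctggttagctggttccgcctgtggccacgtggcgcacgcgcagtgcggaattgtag
Farsb, chr1:78488848-78489147, minus strand: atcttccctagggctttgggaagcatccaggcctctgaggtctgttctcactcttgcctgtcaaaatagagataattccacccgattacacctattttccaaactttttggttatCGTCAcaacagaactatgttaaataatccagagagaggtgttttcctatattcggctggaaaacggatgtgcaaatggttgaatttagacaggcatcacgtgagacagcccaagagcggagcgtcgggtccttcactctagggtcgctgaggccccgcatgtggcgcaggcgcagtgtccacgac
Fars2, chr13:36117393-36117692, plus strand: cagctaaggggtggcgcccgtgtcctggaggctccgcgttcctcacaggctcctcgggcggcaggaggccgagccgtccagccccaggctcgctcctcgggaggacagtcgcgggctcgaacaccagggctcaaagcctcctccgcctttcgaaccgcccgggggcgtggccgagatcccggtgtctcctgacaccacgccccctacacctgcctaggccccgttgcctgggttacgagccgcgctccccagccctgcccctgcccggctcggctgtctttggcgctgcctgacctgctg
Lars2, chr9:123366677-123366976, plus strand: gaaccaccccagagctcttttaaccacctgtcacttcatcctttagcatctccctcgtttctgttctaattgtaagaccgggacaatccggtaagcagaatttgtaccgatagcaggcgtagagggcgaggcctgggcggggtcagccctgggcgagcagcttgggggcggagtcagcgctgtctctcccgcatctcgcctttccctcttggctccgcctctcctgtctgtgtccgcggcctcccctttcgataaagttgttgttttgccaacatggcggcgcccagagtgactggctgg
Eprs, chr1:185362794-185363093, plus strand: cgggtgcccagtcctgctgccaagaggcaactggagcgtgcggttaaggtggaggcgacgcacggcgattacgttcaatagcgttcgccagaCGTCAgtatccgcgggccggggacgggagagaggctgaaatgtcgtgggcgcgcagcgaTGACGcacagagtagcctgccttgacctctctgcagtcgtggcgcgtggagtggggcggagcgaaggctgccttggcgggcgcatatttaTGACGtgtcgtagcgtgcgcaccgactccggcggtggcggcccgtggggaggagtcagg

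Among these windows, Eprs holds 3 copies of TGACG and Nars2 holds 2. Yars, Tars and Farsb hold 1 each, and Fars2 and Lars2 hold none. A C/EBP-ATF element stands in Yars and Tars.

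The majority of the synthetase genes carried a T69/71 peak. In each T69/71 library 25 of the 37 genes (67.6%) had one at an end, where 27.5% and 27.9% of all protein-coding genes did. In both libraries it was 20 genes (54.1%), against 21.1% of all genes. Hars and Hars2 share their peak in each library, so these genes stand for fewer separate sites. The count fell to 12 genes (32.4%) when −log10 q had to reach 5, where all genes fell to 15.5%.

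Cytosolic and mitochondrial forms were marked at similar shares with T69/71. In both libraries 11 of 20 cytosolic genes (55.0%) and 9 of 17 mitochondrial genes (52.9%) had a peak. In replicate 1 of S490/498 the counts were 11 of 20 cytosolic (55.0%) and 6 of 17 mitochondrial genes (35.3%), together 17 of 37 (45.9%) against 17.9% of all genes. Lars2 is among these 6 only through a peak at its 3′ end, treated below as a possible artefact. No test of the cytosolic against the mitochondrial share was made, since genes are not replicates. In replicate 2 of S490/498 only Lars2 had a peak (2.70% of members, against 0.224% of all genes), and Lars2 was thus the only member marked in both S490/498 libraries, where the background was 0.178%. The 3 larger libraries all marked 14 members (37.8%), against 14.3% of all genes.

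**Figure D1:**
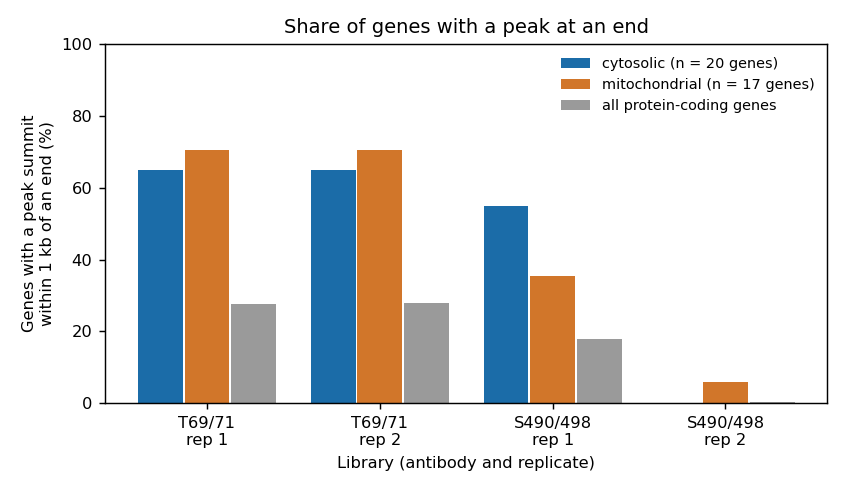
Share of genes (vertical axis, percent, from 0) with a peak summit within 1 kb of either end in each of the 4 libraries, for cytosolic genes, mitochondrial genes and all protein-coding genes. Cytosolic and mitochondrial shares are 65.0% and 70.6% in each T69/71 library and 55.0% and 35.3% in replicate 1 of S490/498; in replicate 2 of S490/498 the values are 0% and 5.88%, the latter being Lars2 alone.

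Among the genes with an annotated start, Nars2, the mitochondrial asparaginyl-tRNA synthetase, had the start-site peak of highest fold in each of the 3 larger libraries. The gene spans chromosome 7, 96950839 to 97064758, and the peak in replicate 1 of T69/71 spanned 96951284 to 96951819. Its fold was 18.6 and 13.7 in replicates 1 and 2 of T69/71 and 17.0 in replicate 1 of S490/498. It ranked 231 of 12464, 1027 of 14716 and 181 of 7132 peaks by −log10 q, and rested on 57, 23 and 39 fragments at the summit. The summits lay at 5, -33 and 34 bp from the annotated start, where negative is upstream, close to the TGACG copies at -18 to -14 and 4 to 8. No other protein-coding gene ends within 1 kb of it.

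Among the other mitochondrial genes, Fars2 (phenylalanyl-tRNA synthetase) had folds of 9.37 and 11.5 with T69/71 and 8.50 in replicate 1 of S490/498. Sars2 (seryl) had 7.35, 9.77 and 8.73 in the same order. Ears2 (glutamyl) had 5.66, 8.35 and 3.42, the last on 3 fragments and ranked 6933 of 7132 peaks by −log10 q. Like Nars2 and Hars2, these 3 genes were marked in the 3 larger libraries. Pars2 (prolyl) had folds of 6.29 and 4.86, and Rars2 (arginyl) 4.21 and 4.25, both with T69/71 only. The Pars2 and Rars2 summits held 4 to 7 fragments, and a difference from S490/498 was not tested.

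Of the 9 mitochondrial genes marked in both T69/71 libraries, 6 had every such peak within 1 kb of another gene's end. The neighbours included Lyrm4 at Fars2, Mrps12 (a mitochondrial ribosomal protein) at Sars2, Ubfd1 at Ears2, Orc3 at Rars2 and Hars at Hars2. Among 11 marked cytosolic genes this held for 2, Yars with S100pbp and Hars with Hars2. Those peaks cannot be assigned to either gene. Irrespective of peaks, another protein-coding gene ends within 1 kb at 10 of 17 mitochondrial (58.8%) and 7 of 20 cytosolic genes (35.0%). That was so for 24.8% of all protein-coding genes and for 45.7% of those marked in both T69/71 libraries.

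Of the cytosolic genes, Yars (tyrosyl-tRNA synthetase, chromosome 4, 129189734 to 129219240) was best ranked. Its folds were 13.9 and 13.3 with T69/71 and 11.6 in replicate 1 of S490/498, on 30, 23 and 22 fragments. The 3 values lie close together. The summits stood at -171, -227 and -193 bp from the annotated start, which is 17, -39 and -5 bp from the centre of the TGACG core in that window. Tars (threonyl) had 6.99 and 13.6 with T69/71 and 7.58 with S490/498. Its 3 summits fell within 10 bp of each other, at -81, -86 and -91 bp from the start and 22 to 32 bp downstream of the centre of the TGACG core. Farsb, the beta subunit of cytosolic phenylalanyl-tRNA synthetase, had 11.3, 7.20 and 6.74, with summits spread over -212 to 22 bp from the start. Its partner subunit gene Farsa had no peak at an end in any library. The nearest summit to Farsa lay 3051 bp beyond its upper end, in replicate 2 of T69/71, at Syce2.

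The T69/71 folds differed between replicates at Cars, the cysteinyl enzyme, and Lars, the leucyl enzyme. At the upper end of Cars the T69/71 folds were 6.00 and 15.6, on 9 and 27 fragments. The S490/498 peak of Cars, with a fold of 4.90, lay at the other end of the gene, where replicate 1 of T69/71 had a second peak of 4.55. Cars therefore counts in 3 libraries without a site common to all of them. Lars had 5.34 and 11.7 with T69/71 and none with S490/498. Nars (asparaginyl) had 4.55 and 6.03, and Hars (histidyl) had 4.36, 4.20 and, with S490/498, 5.31, at the end it shares with Hars2.

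**Figure D2:**
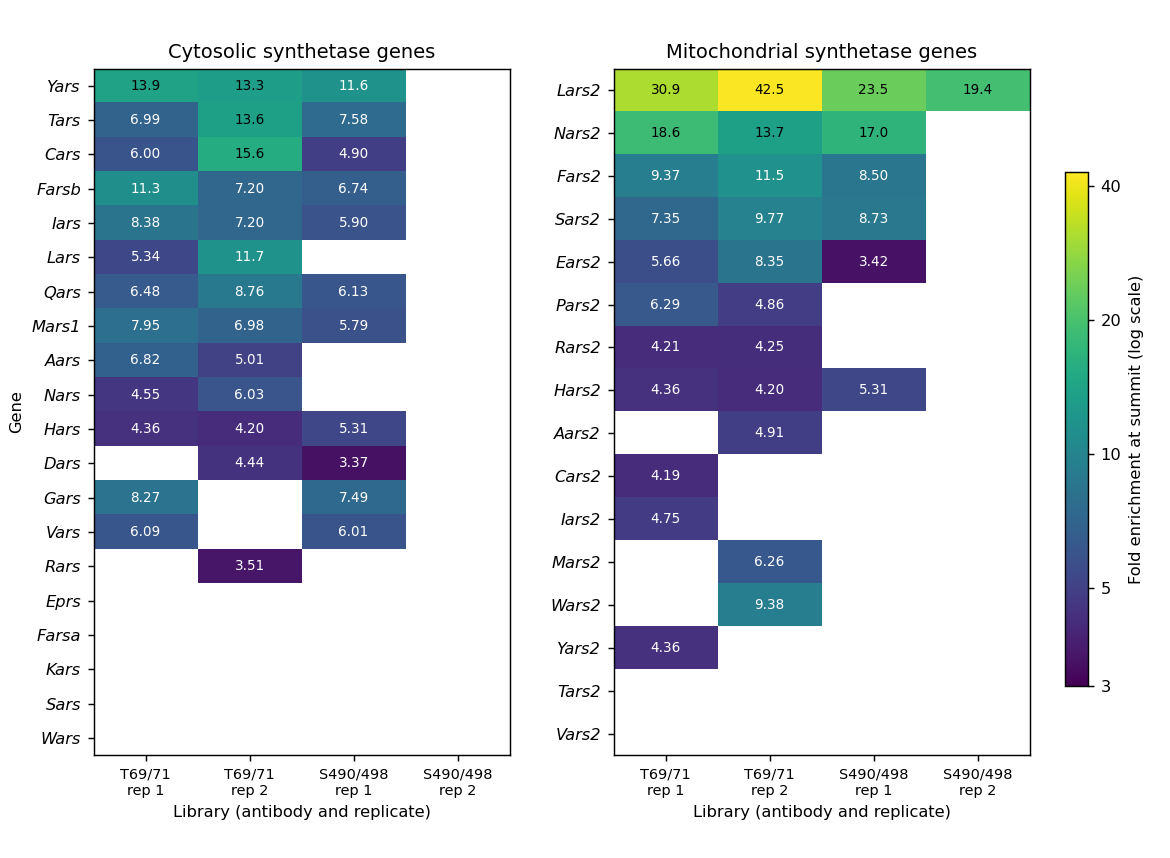
Authors' fold enrichment at the summit (colour, log scale, and printed value) of the strongest peak within 1 kb of either end of the synthetase genes shown, with genes as rows and the 4 libraries as columns; white means no such peak. Nars2 and Yars keep folds of at least 11.6 in 3 libraries, the Lars2 row shows its 3′ peak (19.4 to 42.5), and 7 genes are white in every library.

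Of the 8 enzymes known from the multi-synthetase complex, 4 were marked in both T69/71 libraries, against 21.1% of all genes. These were Iars (isoleucyl, folds 8.38 and 7.20), Qars (glutaminyl, 6.48 and 8.76), Mars1 (methionyl, 7.95 and 6.98) and Lars. Iars, Qars and Mars1 also had a peak in replicate 1 of S490/498, with folds of 5.90, 6.13 and 5.79. Dars (aspartyl) had 4.44 in replicate 2 of T69/71 and 3.37 in replicate 1 of S490/498, the latter on 3 fragments. Rars (arginyl) had 3.51 in replicate 2 of T69/71 only. Kars (lysyl) had no peak at an end; its nearest summit, in replicate 2 of T69/71, lay -1187 bp from the lower end, near Adat1. All 3 genes of the scaffold proteins were marked in both T69/71 libraries, Aimp1 with folds of 6.73 and 5.23, near Tbck, and Eef1e1 with 4.36 and 6.58. Aimp2 had folds of 8.60 and 9.88, and 6.55 in replicate 1 of S490/498, near an end of Pms2.

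Of 12 cytosolic synthetase genes known to be induced through ATF4, 8 (66.7%) were marked in both T69/71 libraries, where 21.1% of all genes were. They were Aars, Cars, Iars, Lars, Mars1, Nars, Tars and Yars. Of the other 8 cytosolic genes, 3 were marked (37.5%), namely Farsb, Hars and Qars. The order was the other way in replicate 1 of S490/498, with 6 of 12 induced (50.0%) and 5 of 8 other genes (62.5%). In that library 17.9% of all genes were marked. With a peak in any library the counts were 9 of 12 and 6 of 8, for which the share over all genes was not counted. Gars (glycyl), an induced gene, had 8.27 in replicate 1 of T69/71 and 7.49 in replicate 1 of S490/498, but no peak in replicate 2 of T69/71. Sars (seryl) and Wars (tryptophanyl), also induced genes, had no summit within 5 kb in any library; the same was true of mitochondrial Vars2 (valyl). This list rests on background knowledge, and its difference from the other cytosolic genes was not tested.

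Eprs, the fused glutamyl- and prolyl-tRNA synthetase of the complex and the remaining gene of the induced list, shows how the counting rule bears on the result. No peak lay within 1 kb of its ends. Its peaks had folds of 11.6 and 11.9 with T69/71 and 12.8 in replicate 1 of S490/498, the last higher than that of any counted cytosolic gene in that library (Yars, 11.6). They stood 1565 to 1627 bp inside the lower end of the gene model, which extends that far upstream of the annotated start. Measured from that start, the summits were at -62, -39 and 0 bp. Wars2 (mitochondrial tryptophanyl) sat on the same edge. Its summits were 1010, 983 and 1184 bp from the lower end, so that only replicate 2 of T69/71 counted, while the folds were 13.2, 9.38 and 10.6. At Qars a further summit at the 3′ side stayed just outside, 1031 to 1041 bp beyond the end in 3 libraries, near Qrich1.

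At Aars (alanyl) the gene-end rule and the start differed as well. The T69/71 peaks that counted lay at opposite ends of the gene, with folds of 6.82 at the lower end in replicate 1 and 5.01 beyond the upper end, near Exosc6, in replicate 2. At the annotated start, with summits 6106 to 6141 bp inside the lower end of the gene model, a peak was present in both T69/71 libraries (6.32 and 4.75) and in replicate 1 of S490/498 (6.34). Aars2, its mitochondrial counterpart, had start peaks of 6.72 and 4.91 that the gene-end rule counted in neither library; it was marked in replicate 2 by a second peak further upstream. Tars2 had a start peak in replicate 2 of T69/71 only, with a fold of 6.33.

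An annotated start was at hand for 27 of the 37 genes. Of these, 16 (59.3%) had a summit within 1 kb of the start in both T69/71 libraries, 8 of 13 cytosolic and 8 of 14 mitochondrial, against 22.9% of 17492 genes with a start. The gene-end rule gave 13 of the 27, and the start added Eprs, Wars2 and Aars2. In replicate 1 of S490/498 the start gave 15 of 27 (55.6%), against 19.2% of genes with a start, made up of 10 of 13 cytosolic and 5 of 14 mitochondrial genes. The summits were close to the starts, with median distances of 87, 45 and 43 bp in the T69/71 replicates 1 and 2 and replicate 1 of S490/498. Over all genes these medians were 119, 100 and 121 bp.

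**Figure D3:**
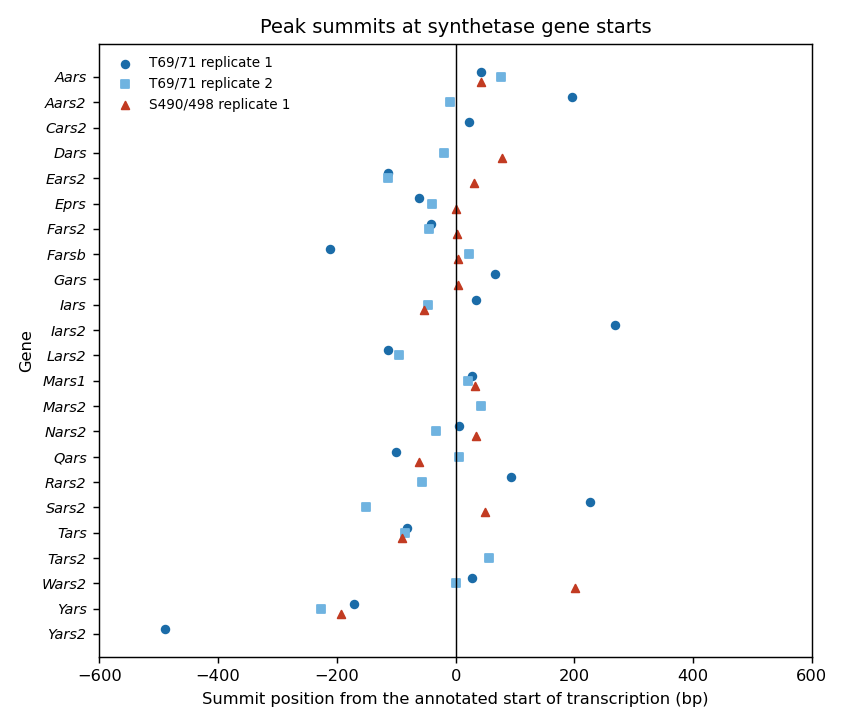
Position of the nearest peak summit within 1 kb of the annotated start of transcription (horizontal axis, bp, negative is upstream) for the 23 synthetase genes that have one, in the 3 larger libraries; each marker is 1 library. Most markers lie within 250 bp of 0, the Yars markers stand together between -227 and -171 bp, and the largest offset is at Yars2, at -490 bp.

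Another 10 genes were marked in exactly 1 T69/71 library. Of all protein-coding genes, 27.5% and 27.9% were marked in replicates 1 and 2 of T69/71 and 21.1% in both. The share of all genes marked in exactly 1 was not counted. Replicate 1 alone gave Gars, Vars (valyl, fold 6.09, and 6.01 in S490/498, near D17H6S56E-5), Cars2 (4.19), Iars2 (4.75, near Bpnt1) and Yars2 (4.36). Replicate 2 alone gave Dars, Rars, Aars2 (4.91), Mars2 (6.26) and Wars2. Besides Eprs, Farsa, Kars, Sars and Wars, the genes without a peak at an end in any library were Tars2 and Vars2. The share of all genes without such a peak was not counted either. The median fold was slightly lower for marked members than for all peaks at gene ends, though the medians were taken differently. The strongest peak at an end of each marked member, Lars2 included, gave 6.48, 7.20 and 6.13 in the 3 larger libraries. Every peak at a gene end gave 6.99, 7.47 and 6.80. Start peaks more than 1 kb from an end, as at Eprs, were not part of the member medians.

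Lars2, the mitochondrial leucyl-tRNA synthetase (chromosome 9, 123366927 to 123462675), was the exception in position and size. Its main peak stood at the 3′ end, with the summit 642 to 687 bp inside the gene in all 4 libraries, and the 4 summits within 45 bp of each other. In replicate 1 of T69/71 it spanned 123461800 to 123462222. The folds were 30.9 and 42.5 with T69/71 and 23.5 and 19.4 with S490/498, whereas the highest fold of any other member was 18.6, 15.6 and 17.0 in the 3 larger libraries. By fold it ranked 34 of 12464, 17 of 14716, 38 of 7132 and 14 of 435. It is the only member peak in replicate 2 of S490/498, the library with the high background.

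The peaks that exceeded it were mostly away from gene ends and in part common to all libraries. Of the 33, 16, 37 and 13 peaks with a higher fold in the 4 lists, 14, 8, 17 and 12 had an overlapping peak in every list. The share of all peaks with such a partner was counted only for replicate 2 of S490/498, given below. Only 1, 0, 1 and 1 of those higher peaks lay at an end of a protein-coding gene. Of all peaks, 5249 of 12464, 5443 of 14716, 3299 of 7132 and 47 of 435 did, so such peaks were few in the last list as a whole. Presence in every list was not particular to peaks away from gene ends: in replicate 2 of S490/498, 155 of 435 peaks had a partner in every other list, and 32 of these lay at a gene end, where that list held 47 peaks in all. The 3′ Lars2 peak has to be treated as a possible artefact, and whether its signal depends on the antibody's target was not tested, as no control library or list of high-signal regions was used.

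At its 5′ end Lars2 behaved like a weakly marked member. Peaks with folds of 5.31 and 4.15 had summits at -114 and -96 bp from the start in the T69/71 libraries, and no peak was there with S490/498. Without the 3′ peak, Lars2 still counted in both T69/71 libraries, so that the 20 genes stayed 20. With that peak left out, Lars2 was not marked in replicate 1 of S490/498, and the 14 genes marked in the 3 larger libraries became 13. No synthetase gene was then marked in both S490/498 libraries.

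**Figure D4:**
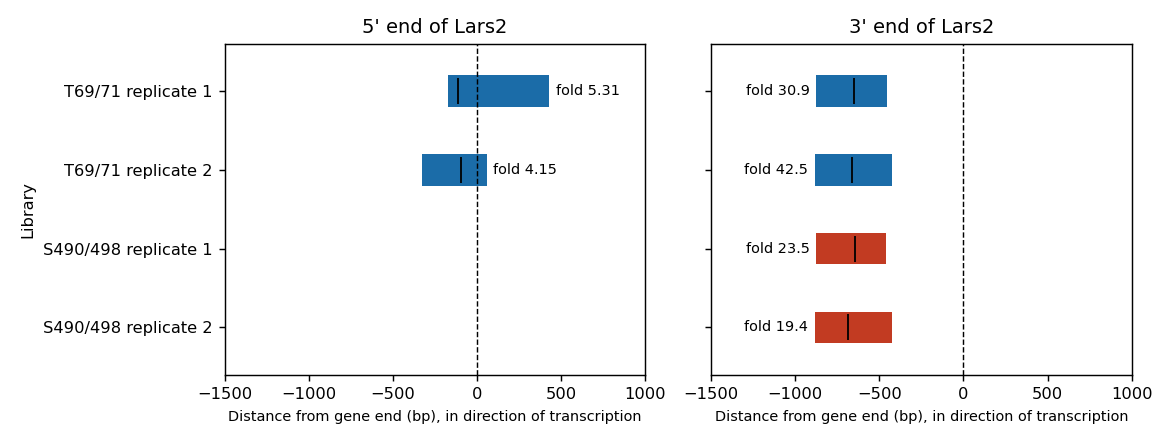
Extent of each Lars2 peak (bars) and its summit (black tick) around the 5′ end (left) and the 3′ end (right) of the gene, as distance from that end in bp along transcription, 1 row per library, with the fold printed beside it. The 3′ peak sits at the same place in all 4 rows with folds of 19.4 to 42.5, and the 5′ peak is in the T69/71 rows only, at 5.31 and 4.15.

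**Figure D5:**
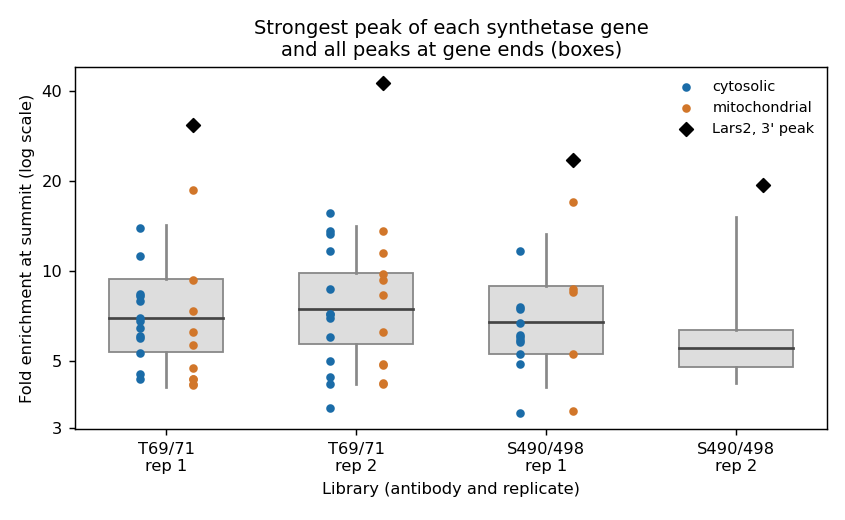
Fold enrichment (log axis) of the strongest peak of the marked synthetase genes shown (points; diamond, the Lars2 3′ peak) over the spread of all peaks at protein-coding gene ends (box, middle 50%; line, median; whiskers, 5th to 95th percentile) in each library. Most member points fall within the whiskers, and the Lars2 diamond lies above them in all 4 libraries.

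Per library, the number of marked synthetase genes was 25 and 25 with T69/71 and 17 and 1 with S490/498. The means, 25 and 9, differed by 16 genes (exact two-sided permutation p = 0.33, the smallest that 2 against 2 libraries allow). The lists differ in length in the same direction. When each was limited to its 7132 strongest peaks, the T69/71 libraries had 16 and 15 marked members (all genes, 20.0% and 17.5%), and replicate 1 of S490/498 had 17. At equal length the larger lists therefore gave counts within 2 genes of each other. Replicate 2 of S490/498, with 435 peaks, could not be brought to that length, and without it the difference over full lists was 8 genes.

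Other genes that handle tRNA or pass it to the ribosome were marked in part. Their counts stand against 21.1% of all genes with a peak in both T69/71 libraries. Of 10 elongation factor genes, 7 had a peak in both T69/71 libraries and 3 did not. Eef2, the translocase, had folds of 15.3 and 12.7 and 15.0 in replicate 1 of S490/498, at an end near Dapk3. Eef1g, at an end near Tut1, had 10.4 and 12.5, and 7.01 in replicate 1 of S490/498. Eef1a1, which delivers charged tRNA to the ribosome, had 8.09 and 11.8, and 8.59 in replicate 1 of S490/498. Of 10 genes of tRNA maturation and export, 3 were marked in both T69/71 libraries, which is near the share of all genes. They were Tsen34 (8.21 and 9.71, near Mboat7) and Clp1 (13.4 and 9.81), of the tRNA splicing machinery, and Xpot, the tRNA exporter (8.45 and 11.7). In replicate 1 of S490/498 these had 9.07, 10.6 and 6.73. Of 7 synthetase relatives and editing enzymes, 3 were marked (Tarsl2, with 6.68 and 13.6, Pstk, with 5.22 and 5.81, and Dtd1, with 4.28 and 5.88). Of 4 partner enzymes of mitochondrial charging (Gatb, Gatc, Qrsl1 and Mtfmt) none was marked in both T69/71 libraries, where 21.1% of all genes were.

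Motifs were counted on both strands of the 300-base start windows. The full CRE, TGACGTCA, was in none of the 27 synthetase windows, and in 2.54% of 17492 genes with a window and 5.93% of those marked in both T69/71 libraries. Its core TGACG, which also lies inside every full CRE, was in 10 of 27 (37.0%), against 26.2% of all genes and 44.8% of those marked in both T69/71 libraries. The 10 were Eprs, Farsb, Mars1, Tars and Yars on the cytosolic side and Aars2, Ears2, Nars2, Sars2 and Wars2 on the mitochondrial side, and each of them was among the 16 with a start peak in both T69/71 libraries. The rest of the 16 lacked the core. The counts over all genes used the gene-end rule instead. By that rule 1737 of 4590 genes with the core, and 3876 of all 17492 with a window, were marked in both T69/71 libraries. Of the 10 members, that rule leaves out Eprs, Aars2 and Wars2 and marks the rest. A link between core and peak was not tested. The C/EBP-ATF element TGATGNAA was in 5 (18.5%), against 4.13% of all genes and 2.32% of the marked ones. All 5, Aars, Gars, Iars, Tars and Yars, are cytosolic genes of the ATF4-induced list, of which 8 had a window; none of the 14 mitochondrial windows held it. From the centre of the nearest such element, the summits lay at 29, 64 and 30 bp at Aars, 24, -57 and -64 bp at Iars, and -70, -75 and -80 bp at Tars. At Gars they lay at 92 and 30 bp in the replicates 1, and at Yars between -178 and -234 bp. Summits were not always near a TGACG core either, being up to 312 bp from the nearest one at Sars2 and 225 bp at Wars2. The AP-1 site TGANTCA was in Qars alone (3.70% of members, against 8.12% of all and 4.70% of marked genes). The NRF1 site, GCGCA, any base, then GCGC, was in Farsb, Iars2, Kars, Mars2 and Tars (18.5%), against 7.17% of all genes and 13.9% of the marked ones. A match is a stretch of letters and not a shown site.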

How the data were processed

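CUT&Tag libraries of sorted mouse stem cells were compared, 2 per antibody. Per the submitters' processing notes, FastQC 0.11.5, Bowtie2 2.2.9, MACS2 and ChIPseeker were used with mm10, at settings not given in the sources used here. The authors deposited 1 peak list per library. The deposited columns hold a score (10 times −log10 q, cut to a whole number), a fold enrichment ratio and −log10 p and q at the summit, with q under 0.05 in every list.

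Gene ends came from a RefSeq table of GRCm38.p6. Starts and strand came from RefSeq promoter windows, which matched 27 members; 10 were not matched. Dtd1 and 4930503L19Rik carry a matching name only as a synonym and were left out. A mitochondrial member is included in the counts but not reported by name or plotted by itself here. A gene was marked by a summit within 1 kb of either end. Fragments at a summit were solved from fold and p (tolerance 0.001 in −log10 p, which is met by 99.8% to 100% of peaks up to 250). The lists give no read totals. Python 3.11.15, pandas 2.3.3, numpy 2.4.6 and SciPy 1.17.1 were used; marking and solving were tested on simulated data.

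The 4 libraries were compared with an exact permutation test; no set test was made. Members and lists were chosen with earlier results of these data known. Values are given for genes with peaks in both T69/71 libraries, and of other lists for at most 3 genes. Alternatives were other windows, −log10 q of at least 5, peak overlap, the 5′ end alone, and leaving out Lars2 or a library; equal list lengths, ends or starts together, and leaving out the 3′ Lars2 peak were added after seeing the data.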

Additional observations from a re-analysis of the deposited data

How the results depend on the processing

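Of 67 alternative values, 55 stayed within 1.5 times the reported count or kept the direction of the antibody difference, and 12 moved. With −log10 q of at least 5, the genes marked in both T69/71 libraries fell from 20 to 12 (cytosolic 11 to 7, mitochondrial 9 to 5), and those also marked in replicate 1 of S490/498 from 14 to 8. At equal list lengths the first 3 counts were also 12, 7 and 5, the share of all genes was 13.6%, and the antibody difference was 6.5 (exact permutation p = 1). Both settings keep fewer peaks of the T69/71 lists. The difference of 6.5 rests on replicate 2 of S490/498, which stayed at 435 peaks and 1 marked member. Among the lists of equal length the direction was the other way, with 17 members in replicate 1 of S490/498 and 16 and 15 with T69/71. The count of 1 in both S490/498 libraries, Lars2, became 0 with a 500 bp window, at the 5′ end alone, without Lars2 and without its 3′ peak. Leaving out 1 library gave 1 to 17 for it, where 17 is without replicate 2, 25 and 25 for T69/71 (cytosolic 13, mitochondrial 12), 15 to 20 for the 14 genes in 3 libraries, and 8 to 24 for the antibody difference. Paired by replicate number (replicate block), that difference was again 16, from 8 and 24 (exact permutation p = 0.5, the smallest possible). The labels tie the numbers to no shared batch. The replicate differences of the 2 antibodies correlated over genes at 0.05. Replicate 2 of S490/498 marked 49 genes and replicate 1 marked 3917, so this correlation cannot decide whether a batch was shared. Peaks of 3 to 9 fragments make single weak marks uncertain.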
